A study of Mus musculus with 36 samples.

Results

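Acute phase proteins are plasma proteins whose output by the liver changes during inflammation, and 10 genes that encode them were followed here through 36 mouse livers. They are the serum amyloid A genes Saa1, Saa2, Saa3 and Saa4, the orosomucoid genes Orm1, Orm2 and Orm3, and Lcn2, Hp and Apcs. The members were taken by name and not by any measured value, although earlier results of these data were known when they were chosen. All 10 were found among the 53715 gene identifiers of the deposited table and among the 14068 genes with enough counts to test. Bulk RNA was sequenced from the livers of male C57BL/6 mice aged 10 weeks, with 12 mice in each of 3 diet groups. Control mice ate AIN93G, a purified rodent diet. Red mice ate AIN93G with 10% powder of red tomato, and Tangerine mice ate AIN93G with 10% powder of tangerine tomato, each diet given from 4 weeks of age. All groups share strain, sex, age and base diet, and the labels name no inflammatory stimulus for any mouse. Each library carries its own mouse number, taken here to mean 1 mouse, although the labels give 11-12 mice per group. If that reading were wrong, the p-values would measure only the spread between these libraries.

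In an acute phase response, cytokines such as interleukin 6 and interleukin 1 reach the liver from sites of infection or injury. They act on hepatocytes through the transcription factors STAT3, C/EBP and NF-kB, and mRNAs of positive acute phase proteins rise while those of negative ones such as albumin fall. In the mouse, Saa1, Saa2, Saa3, Orm2 and Lcn2 are known for large increases from a low resting level, whereas haptoglobin and Orm1 are abundant at rest, Saa4 is largely constitutive and serum amyloid P, the product of Apcs, is the main pentraxin of the acute phase.

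The labelled tissue was checked first. The summed level of 10 hepatocyte markers lay between 100200 and 140700 CPM (counts scaled to a common library size) in every liver, and Alb alone had at least 1577131 counts per library. Total counts ran from 21290169 to 33810573 per library. A pair of libraries stood apart in markers of other tissues. Red mouse 186 had 8056 counts over 8 T cell markers, against at most 282 in any other library, and also held the highest counts of the adipose genes Adipoq (52) and Plin1 (110). Tangerine mouse 216 had 400 counts over 11 pancreas markers, against at most 13 in the Red and 5 in the Control group, although the pancreatic elastase gene Cela2a was at 0 in all livers. Without both libraries, 0 of the 10 members passed in each of the 4 diet comparisons below, as with them, and 18 pairs of members were correlated in place of 17. In bulk tissue, fewer cells of a type and less RNA per cell cannot be told apart.

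The Saa genes lie together on chromosome 7 of the mouse genome GRCm38. Saa1 (46740497 to 46742980, minus strand) and Saa2 (46751790 to 46754313, plus strand) are close copies in opposite orientation, and Saa3 (46711998 to 46715700) and Saa4 (46727998 to 46732603) are on the minus strand beside them. The Orm genes are neighbours on the plus strand of chromosome 4, Orm1 from 63344560 to 63348163, Orm3 from 63356162 to 63359511 and Orm2 from 63362449 to 63365878. Lcn2 is on chromosome 2 (32384633 to 32388252), Hp on chromosome 8 (109575128 to 109579172) and Apcs on chromosome 1 (172893961 to 172895041), all on the minus strand. All are protein-coding, and 0 of the 10 overlap another annotated gene. The principal transcripts of Saa1 and Saa2 were identical at 572 of 612 aligned positions (93.5%), with a longest identical run of 76 bases. Those of Orm1 and Orm2 were 91.0% identical, with a run of 141 bases, and Orm3 was 86.1% identical to Orm1 and 88.0% to Orm2. How reads shared by such copies were counted is not given in the sources used here, so the split of reads within the Saa1 and Saa2 pair and within the Orm genes is uncertain.

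Promoters of 5 genes are shown because their transcripts either moved together across the mice (Saa1, Saa2, Saa3, Lcn2) or, for Saa4, sat in the same gene cluster with a weaker relation to Saa1. Orm2 also moved with Saa1, Saa2 and Lcn2, as given below, but its promoter is not shown. The sequences are from RefSeq on GRCm38.p6, from 250 bases before to 50 bases after RefSeq's gene start, written 5′ to 3′ on the gene's strand. For Saa1 and Saa4 that start is the GENCODE gene start, and for Saa2, Saa3 and Lcn2 it lies 43, 24 and 513 bases downstream of it, so the Lcn2 window is inside the longest annotated extent of the gene. They span chr7:46742931-46743230 (minus strand) for Saa1, chr7:46751583-46751882 (plus strand) for Saa2, chr7:46715627-46715926 (minus strand) for Saa3, chr2:32387690-32387989 (minus strand) for Lcn2 and chr7:46732554-46732853 (minus strand) for Saa4. Capitals mark matches to a C/EBP motif, searched as TTNNGNAAT or TGNNGNAAT on both strands.
Saa1: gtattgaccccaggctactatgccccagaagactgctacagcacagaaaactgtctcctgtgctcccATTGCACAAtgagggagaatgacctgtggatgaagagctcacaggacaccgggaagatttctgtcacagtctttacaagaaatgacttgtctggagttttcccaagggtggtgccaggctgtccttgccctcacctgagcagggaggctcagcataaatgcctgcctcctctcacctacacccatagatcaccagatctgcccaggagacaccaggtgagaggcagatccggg
Saa2: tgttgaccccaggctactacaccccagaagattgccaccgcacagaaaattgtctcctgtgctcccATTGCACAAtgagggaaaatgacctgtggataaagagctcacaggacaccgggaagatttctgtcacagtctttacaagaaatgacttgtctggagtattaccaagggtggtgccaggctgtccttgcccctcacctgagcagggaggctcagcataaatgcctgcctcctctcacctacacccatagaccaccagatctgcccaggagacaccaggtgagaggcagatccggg
Saa3: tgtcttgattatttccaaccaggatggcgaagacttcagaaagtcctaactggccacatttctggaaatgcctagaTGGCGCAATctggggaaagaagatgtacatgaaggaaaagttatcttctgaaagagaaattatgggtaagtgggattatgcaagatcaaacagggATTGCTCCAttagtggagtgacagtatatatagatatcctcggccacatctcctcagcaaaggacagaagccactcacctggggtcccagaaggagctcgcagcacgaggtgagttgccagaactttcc
Lcn2: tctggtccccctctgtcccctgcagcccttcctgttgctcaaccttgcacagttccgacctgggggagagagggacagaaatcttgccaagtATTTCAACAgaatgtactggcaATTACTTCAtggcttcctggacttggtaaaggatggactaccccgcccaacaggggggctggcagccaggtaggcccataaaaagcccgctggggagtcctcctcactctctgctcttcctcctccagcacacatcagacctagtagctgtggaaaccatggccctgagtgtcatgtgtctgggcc
Saa4: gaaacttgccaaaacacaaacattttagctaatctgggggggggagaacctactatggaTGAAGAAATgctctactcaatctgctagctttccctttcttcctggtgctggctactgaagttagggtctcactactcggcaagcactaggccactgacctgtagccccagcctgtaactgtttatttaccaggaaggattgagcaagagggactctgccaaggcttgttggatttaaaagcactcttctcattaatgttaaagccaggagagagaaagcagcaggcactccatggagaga

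The promoter table held 8 of the 10 members, without Orm1 and Hp. A C/EBP match occurred in 6 of those 8, against 21.2% of 32851 mouse promoters of the same length. Saa1 and Saa2 carried the same match, ATTGCACAA, 183 and 184 bases before the RefSeq start, and their promoters were identical at 287 of 301 aligned positions (95.3%). Saa3 held 2 matches, Lcn2 held 2, and Saa4 and Orm2 held 1 each. A STAT motif, TTCNNNGAA, matched 1 of the 8 promoters, that of Apcs, and 8.30% of all promoters. The NF-kB motif matched 0 of the 8 and 8.46% of all promoters. A match describes letters only and was not tied to binding.

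The resting levels of the 10 transcripts covered a wide range. Per kilobase of principal transcript, averaged over 36 mice, Hp stood at 1117 CPM per kb and ranked 70 among 14059 genes with a length. Orm1 followed at 596 and Saa4 at 108 CPM per kb. Apcs was at 97.4, Saa1 at 42.3, Saa2 at 18.0 and Orm2 at 13.4 CPM per kb. Lcn2 (3.56), Saa3 (3.37) and Orm3 (1.32 CPM per kb) were the lowest. The ranges over mice of Hp and Orm1 did not overlap, nor did those of Orm1 and Saa4, whereas every other neighbouring pair in this order overlapped. The constitutive member Saa4 was thus above the inducible Saa1, Saa2 and Saa3 on this scale in the group mean, and Orm1 was above its copies Orm2 and Orm3.

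The first comparison asked whether either tomato diet changed these transcripts. No member passed the test (edgeR's quasi-likelihood test with Benjamini-Hochberg adjustment over 14068 genes, threshold 0.05) in any of 4 comparisons. For red against control the count was 0 of 10 members, where 0.149% of all genes tested were called. It was 0 of 10 for tangerine against control (0.0142% of all genes called), 0 of 10 for tangerine against red (1.71%), and 0 of 10 for both tomato diets against control (0.00711%). At an unadjusted p under 0.05 the member counts were 0, 0, 1 and 0 in the same order, beside 13.3%, 5.47%, 15.1% and 6.77% of all genes. DESeq2 and limma-voom also called 0 members. These comparisons share libraries and are not independent of each other.

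Member log2 fold changes ran from -0.19 to 0.43 for red against control (adjusted p from 0.471 to 0.965) and from -0.30 to 0.36 for tangerine against control (0.997 to 0.9999). For tangerine against red they ran from -0.24 to 0.21 (0.193 to 0.999). The medians over the 10 members were -0.06, -0.01 and 0.02, beside -0.0047, -0.0118 and -0.0046 over all genes tested. The intervals set how large a difference the data leave room for: over the 3 comparisons the lowest bound was a 0.53-fold and the highest a 2.31-fold level, both among the variable transcripts, and the plot of fold changes shows how much narrower the intervals were for Hp, Apcs and Orm1. A p above the threshold does not show that the diets gave the same level.

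**Figure D1:**
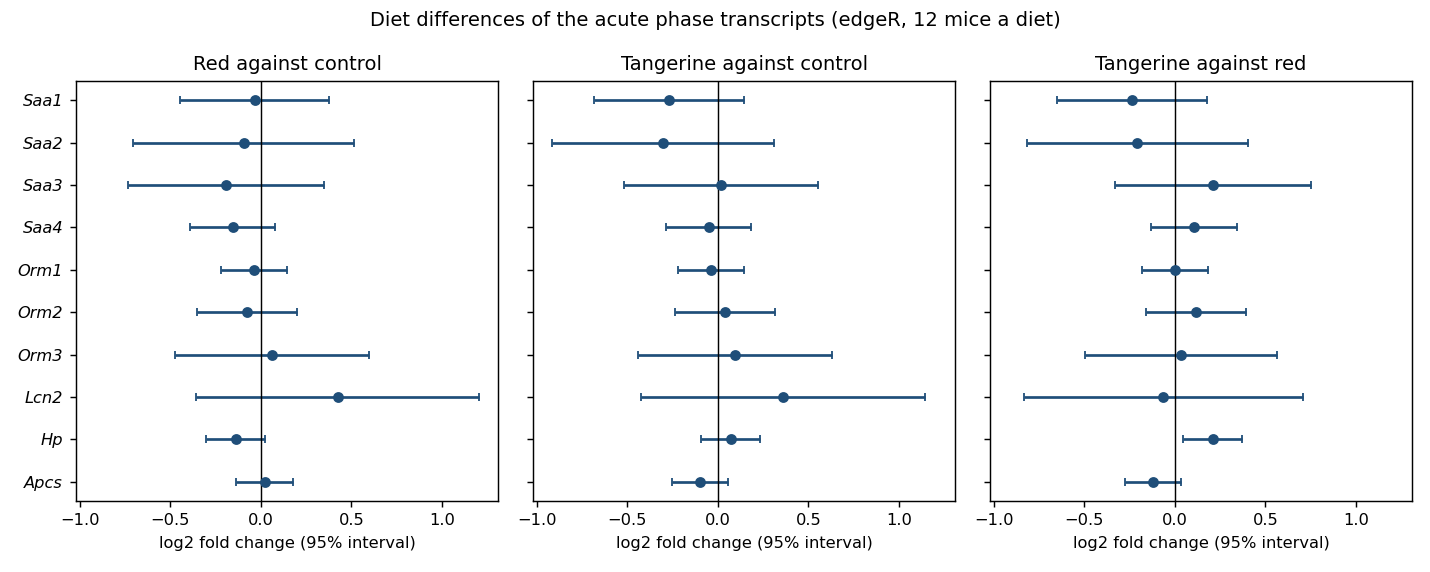
Log2 fold change (x axis) of each acute phase transcript (rows) in 3 diet comparisons (panels), from edgeR with 12 mice a diet; points are estimates and bars 95% intervals. Every interval crosses 0 except that of Hp for tangerine against red (0.05 to 0.37), and Lcn2 and Saa2 have the widest bars.

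Saa1 encodes a major circulating serum amyloid A, an apolipoprotein of high density lipoprotein that rises steeply in inflammation. Its level was 14.5 CPM at the lowest, 28.0 at the median and 46.5 at the highest in Control mice, 13.5, 27.6 and 58.8 CPM in Red mice, and 12.0, 20.7 and 41.0 CPM in Tangerine mice. The 3 ranges overlapped over most of their length, and only 1 of 12 Tangerine mice, number 226, lay above the Control median. The log2 fold change was -0.27 for tangerine against control (SE 0.20, adjusted p = 0.997, edgeR) and -0.03 for red against control (SE 0.20, adjusted p = 0.965, edgeR). The difference of tangerine from red, -0.24, became -0.07 without Red mouse 199.

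Saa2, the second circulating acute phase serum amyloid A, showed the same picture with more spread. Control mice ran from 2.45 to 20.8 CPM with a median of 14.1, Red mice from 4.22 to 28.6 with a median of 10.9, and Tangerine mice from 3.41 to 20.3 with a median of 8.54 CPM. The Control range held the lowest mouse of all, number 240, and the Red range the highest, number 199, so no order of the diets held mouse by mouse. Saa2 differed by -0.30 on the log2 scale between tangerine and control (SE 0.30, adjusted p = 0.9999, edgeR) and by -0.21 between tangerine and red, a value that became -0.0093 without Red mouse 199.

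Saa3, a serum amyloid A made largely outside the hepatocyte, for example in macrophages and adipose tissue, was scarce, with 22 to 115 counts per library. Control mice had 0.78 to 4.62 CPM (median 1.54), Red mice 0.80 to 3.84 CPM (median 1.49) and Tangerine mice 0.98 to 3.24 CPM (median 1.90). Tangerine mice were above the Red median in 9 of 12 cases, and the log2 difference of 0.21 had an SE of 0.27 (adjusted p = 0.749, edgeR). Saa4, the constitutive serum amyloid A, had medians of 227, 207 and 225 CPM in Control, Red and Tangerine mice. Its lowest value, 131 CPM, belonged to Red mouse 186 and its highest, 363 CPM, to Control mouse 137.

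Lcn2 encodes lipocalin 2, a siderophore-binding protein that withholds iron from bacteria and is made by neutrophils and stressed hepatocytes. Its medians were nearly the same, 2.78 CPM in Control, 2.62 in Red and 2.64 in Tangerine mice, and its lowest values were 0.97, 0.97 and 1.08 CPM. The highest values were 5.94 CPM in Control mouse 182, 12.5 in Red mouse 199 and 14.2 in Tangerine mouse 192, with the next mouse at 5.58 in Red and 4.93 CPM in Tangerine. Apart from those 2 mice the groups covered nearly the same span. The positive differences from control therefore turned on single livers: red against control was 0.43 on the log2 scale (SE 0.39, adjusted p = 0.672, edgeR) and 0.05 without mouse 199, and tangerine against control was 0.36 (SE 0.39, adjusted p = 0.9999) and -0.11 without mouse 192. Between tangerine and red the value was -0.06, -0.54 without mouse 192 and 0.31 without mouse 199.

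Some markers of immune cells were also high in mouse 192. The summed level of 13 neutrophil markers was 8.99 CPM (244 counts) in that liver, the highest of 36, with 83 counts of Retnlg against a median of 4. In Red mouse 199 the sum was 3.75 CPM, 3rd of 36, and group medians were 2.17, 2.42 and 2.13 CPM in Control, Red and Tangerine mice. S100a8 (27 counts), S100a9 (32), Mmp8 (7), Mmp9 (21) and Csf3r (66) also had their highest count in mouse 192. Cxcr2, Elane, Ltf, Mpo, Ngp, Camp and Ly6g had theirs in other livers. Of these, Ly6g, Camp and Ngp never exceeded 3 counts in any library. The summed level of 10 Kupffer cell and macrophage markers was 366.8 CPM in mouse 192, second of 36, and 269.3 CPM in mouse 199, 17th of 36. Of those markers, only Cd68 (560 counts) and Lyz2 (3185) had their highest count in mouse 192. Adgre1, Clec4f, Cd5l, Marco, Vsig4, Timd4, Csf1r and Cd163 had theirs in Control mouse 188 or Red mice 175, 177 or 204. The part of these cells in the Lcn2 values was not tested.

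Orm1, the main orosomucoid (alpha-1-acid glycoprotein), a plasma carrier of basic and neutral lipophilic molecules, had low, median and high values of 399, 452 and 576 CPM in Control, 343, 431 and 601 CPM in Red, and 345, 465 and 652 CPM in Tangerine mice. The group ranges overlapped, and the log2 difference between tangerine and red was -0.0005 with a 95% interval from -0.18 to 0.18. Orm2 had medians of 9.11, 9.66 and 10.8 CPM in Control, Red and Tangerine mice, with all values between 6.24 and 16.2 CPM. Orm3 was the least abundant, with 10 to 63 counts per library and medians of 1.05, 0.951 and 0.994 CPM. At that depth counting alone gives a coefficient of variation of 20.6%, against 46.7% observed over all mice.

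Hp encodes haptoglobin, which binds free haemoglobin and delivers it to macrophages. It was the only member with an unadjusted p under 0.05 in any of the 4 comparisons. Control mice ran from 1272 through a median of 1464 to 2016 CPM, Red mice from 1141 through 1340 to 1697 CPM, and Tangerine mice from 1389 through 1538 to 2108 CPM. The ranges overlapped, but 12 of 12 Tangerine mice lay above the Red median and 8 of 12 Red mice lay below the lowest Tangerine mouse. Group means were 1524 ± 253 CPM in Control, 1385 ± 145 in Red and 1600 ± 239 CPM in Tangerine mice (SD, n = 12 each). The log2 fold change of tangerine against red was 0.21 (SE 0.080, 95% interval 0.05 to 0.37, unadjusted p = 0.0135), and it did not pass the threshold after adjustment over all genes (adjusted p = 0.193, edgeR). The lowest Red value belonged to mouse 186, the liver with T cell and adipose transcripts, and without it the value was 0.19 (adjusted p = 0.265, edgeR). Against control, Hp differed by -0.14 in Red (SE 0.080, adjusted p = 0.471, edgeR) and by 0.07 in Tangerine mice (adjusted p = 0.9999, edgeR).

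Apcs encodes serum amyloid P, a pentraxin that binds amyloid fibrils and nuclear debris. Its low, median and high values were 61.0, 99.7 and 115 CPM in Control, 75.5, 101.5 and 114 CPM in Red, and 78.4, 88.0 and 113 CPM in Tangerine mice. The ranges overlapped, with only 2 of 12 Tangerine mice above the Red median. The log2 difference of tangerine from red was -0.12 (SE 0.077, adjusted p = 0.473, edgeR).

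**Figure D2:**
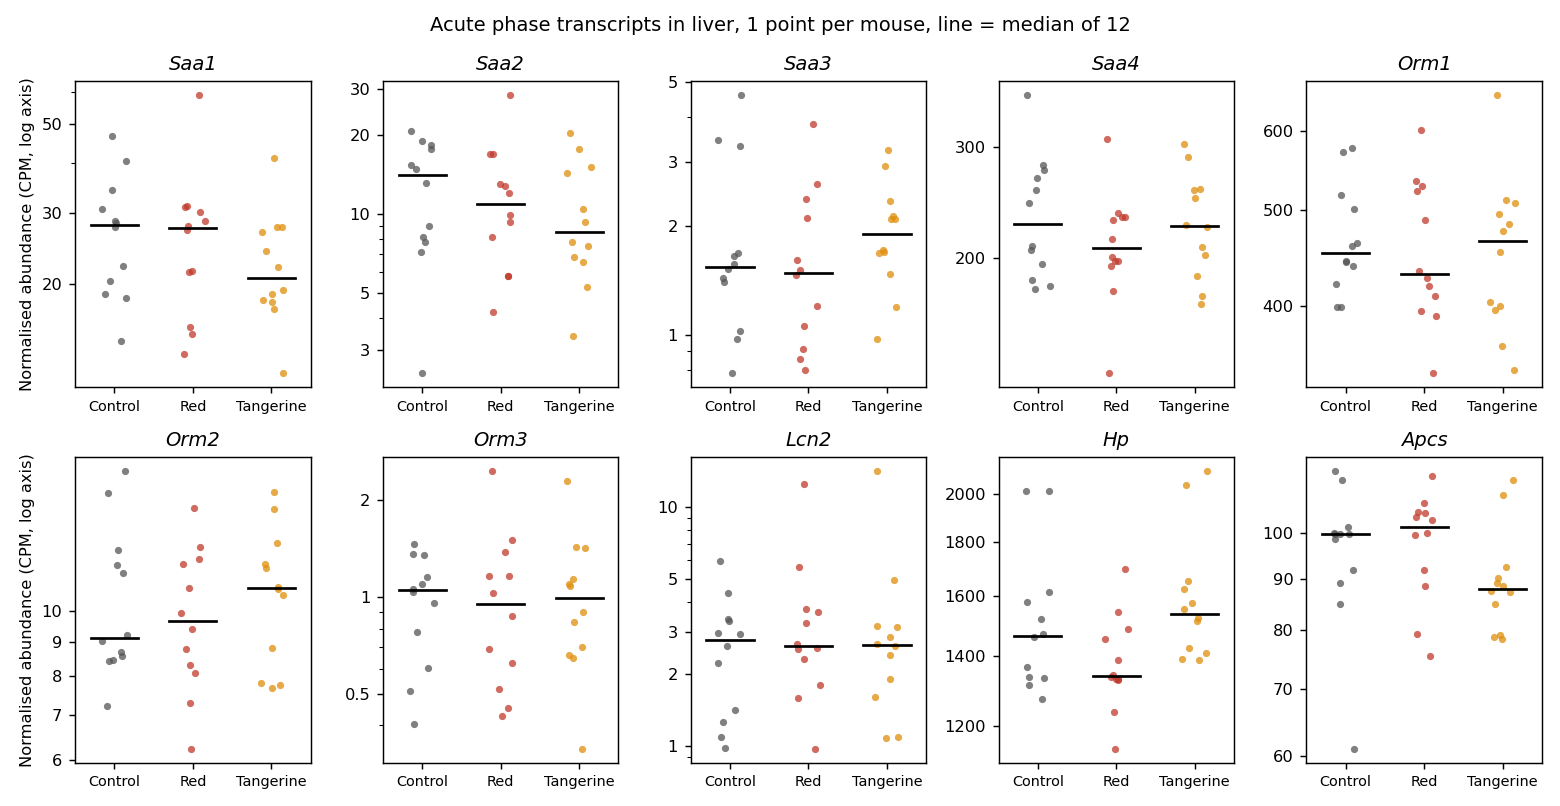
Normalised abundance (CPM, log axis) of the 10 acute phase transcripts (panels) in Control, Red and Tangerine mice, 1 point per mouse and a line at the median of 12. The groups overlap in every panel, single Red and Tangerine mice at 12.5 and 14.2 CPM stand above the others for Lcn2, and the Tangerine points for Hp start at 1389 CPM, above 8 of the Red points.

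The second question was how far the mice differed within a diet. The standard deviation (SD) of log2 CPM between mice, taken within diets, had a median of 0.243 over all genes tested. Lcn2 (SD 0.90) exceeded 98.9% of those genes, Saa2 (0.80) 98.4%, Saa3 (0.64) 96.1%, Orm3 (0.64) 95.9% and Saa1 (0.51) 90.4%. Orm2 (0.35) exceeded 71.7% and Saa4 (0.30) 62.9%, while Orm1 (0.22), Apcs (0.20) and Hp (0.19) lay below the median gene. Against all genes tested, whatever their abundance, the members thus split into a variable set of Lcn2, Saa2, Saa3, Orm3 and Saa1 and a steady set of Hp, Apcs and Orm1. Genes of like abundance were not compared, so the split does not show that a member is variable or steady for its level. Counting error differed between the members: it gives a coefficient of variation of 12.4% for Lcn2, 6.24% for Saa2, 15.2% for Saa3, 3.97% for Saa1 and 0.50% for Hp, beside observed values of 85.0%, 50.1%, 49.3%, 37.9% and 15.3%. Saa2 spanned 11.6-fold between its lowest and highest mouse, Lcn2 14.6-fold and Saa1 4.89-fold, against 1.85-fold for Hp.

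**Figure D3:**
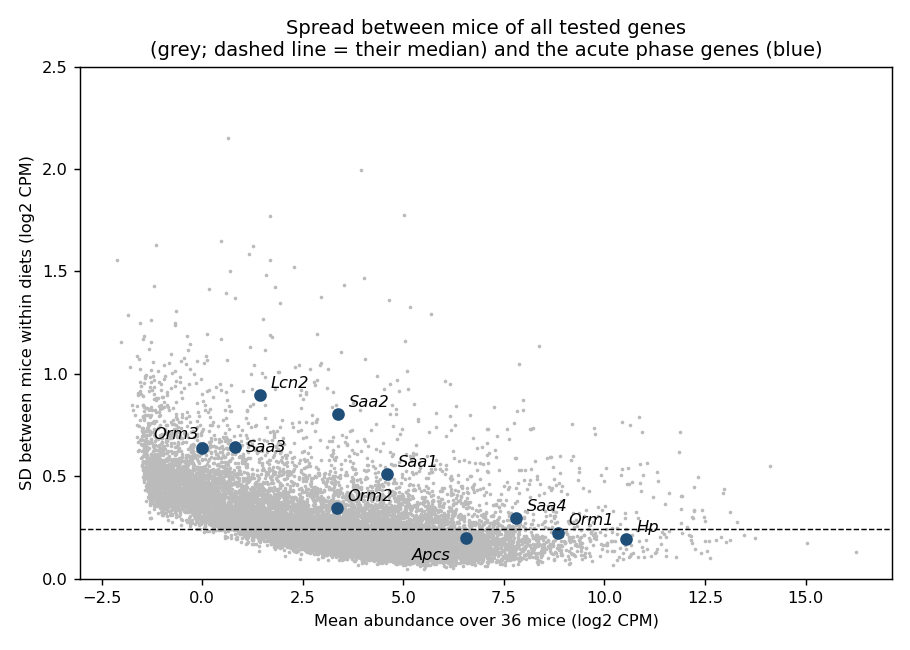
SD between mice within diets (log2 CPM, y axis) against mean abundance over 36 mice (log2 CPM, x axis) for all genes tested (grey) and the 10 acute phase genes (blue); the dashed line is the median of all genes, 0.243. Lcn2 and Saa2 exceed 98.9% and 98.4% of all genes, whereas Hp, Orm1 and Apcs lie near the line.

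The spread itself was not distinguishable between diets. The mean absolute deviation from the diet median was compared between each pair of diets for each member by a two-sided permutation test (100000 resamples). Of 30 such tests, 0 passed after adjustment (all adjusted p = 0.997), and the smallest unadjusted p was 0.25, for Saa3 between Tangerine (0.371 on the log2 scale) and Red mice (0.533). For Lcn2 the deviations were 0.634 in Control, 0.620 in Red and 0.640 in Tangerine mice.

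The third question was whether the same mice were high for several members. With the diet means subtracted, 45 pairs of members were correlated over 36 mice, with p from 100000 permutations of mice within diets and adjustment over the 45 pairs. By Pearson's r, 17 pairs passed the threshold, all positive, and by Spearman's rho 15 did. How many pairs of other genes would pass in these livers was not counted, so the 17 cannot be read as particular to the members. The points share library and depth, and pairs of close copies also share sequence, as shown by the transcripts and promoters above.

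Saa1 and Saa2 were the closest pair, with r = 0.877 and rho = 0.836 over 36 mice (permutation p = 1e-05, the smallest the permutations can give, and adjusted p = 0.000112). Within Control, Red and Tangerine mice r was 0.799, 0.944 and 0.914, and without the 2 mice farthest from the median Saa1 level it was 0.851. How reads were split between these copies is uncertain. Lcn2, by contrast, lies on another chromosome. For Saa1 and Lcn2, r was 0.701 and rho 0.718 (adjusted permutation p = 0.000112), r was 0.597 without the 2 farthest mice, and it was 0.835, 0.832 and 0.444 in Control, Red and Tangerine mice. Without Red mouse 199 and Tangerine mouse 192, r was 0.801. Tangerine mouse 192, the highest for Lcn2, had an unremarkable Saa1 level and ranked 27th of 36.

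Saa3 also followed Saa1 (r = 0.710, rho = 0.699, adjusted permutation p = 0.000112, r = 0.695 without the 2 farthest mice), and Saa2 followed Lcn2 (r = 0.642, rho = 0.673, adjusted permutation p = 0.00045, r = 0.582 without the 2 farthest). Orm2 joined the same mice: with Saa1 r was 0.605 and rho 0.581 (adjusted permutation p = 0.000825, r = 0.531 without the 2 farthest). With Lcn2 it had r = 0.563 and rho = 0.532 (adjusted permutation p = 0.0023, r = 0.582 without the 2 farthest). The constitutive Saa4 did not show this relation at the threshold, with r = 0.258 and rho = 0.292 to Saa1 (adjusted permutation p = 0.256), although it lies in the same gene cluster.

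**Figure D4:**
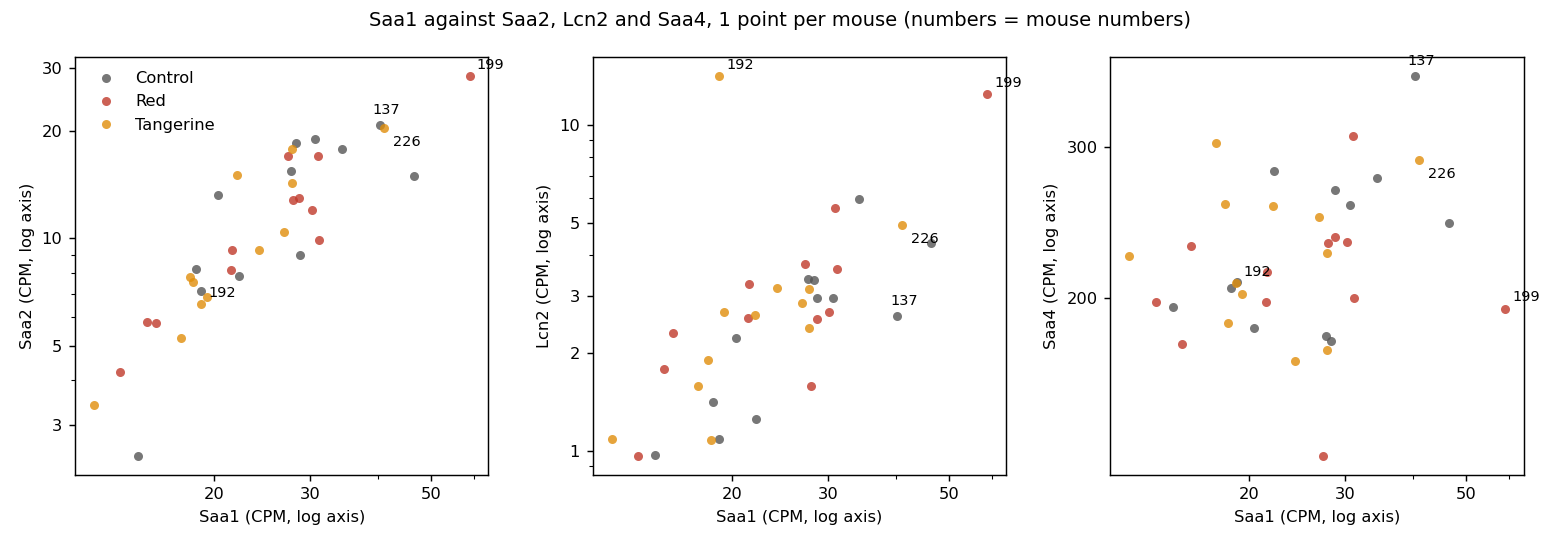
Saa1 (CPM, log x axis) against Saa2, Lcn2 and Saa4 (CPM, log y axes), 1 point per mouse coloured by diet, with 4 mice numbered. Points rise together for Saa2 (r = 0.877) and, apart from Tangerine mouse 192, for Lcn2 (r = 0.701), and scatter widely for Saa4 (r = 0.258). Each r is of log2 CPM with the diet means subtracted, whereas the points are drawn without that subtraction.

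Among the orosomucoids, Orm1 and Orm2 had r = 0.797 and rho = 0.803 (adjusted permutation p = 0.000112, r = 0.788 without the 2 farthest mice), and Orm1 and Orm3 r = 0.611 and rho = 0.534 (adjusted permutation p = 0.000956, r = 0.470 without the 2 farthest). Saa4 and Hp formed a further pair, with r = 0.577 and rho = 0.542 (adjusted permutation p = 0.00238, r = 0.450 without the 2 farthest). Hp also passed with Saa3 (r = 0.543, rho = 0.477) and with Saa1 (r = 0.475, rho = 0.306), the latter not by rho (adjusted permutation p = 0.0109 for r and 0.174 for rho) and not by r without Tangerine mouse 226 (r = 0.401). The pairs Saa3 with Orm2 and Saa3 with Saa4 were the least steady, passing in 25 and 34 of the 36 fits that each left out 1 mouse, with r down to 0.360 without Control mouse 137 and 0.381 without Red mouse 177. Neither of them passed by rho (adjusted permutation p = 0.0945 and 0.0715). Apcs passed with 0 of 9 partners, and its farthest value from 0 was with Saa4 (r = -0.381, rho = -0.378, adjusted permutation p = 0.0669, r = -0.442 without the 2 farthest mice). Orm1 and Hp, both abundant, had r = -0.079 over all mice (rho = -0.084, adjusted permutation p = 0.764), made of 0.645 in Control, 0.122 in Red and -0.798 in Tangerine mice. The difference between diets in that relation was not tested.

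**Figure D5:**
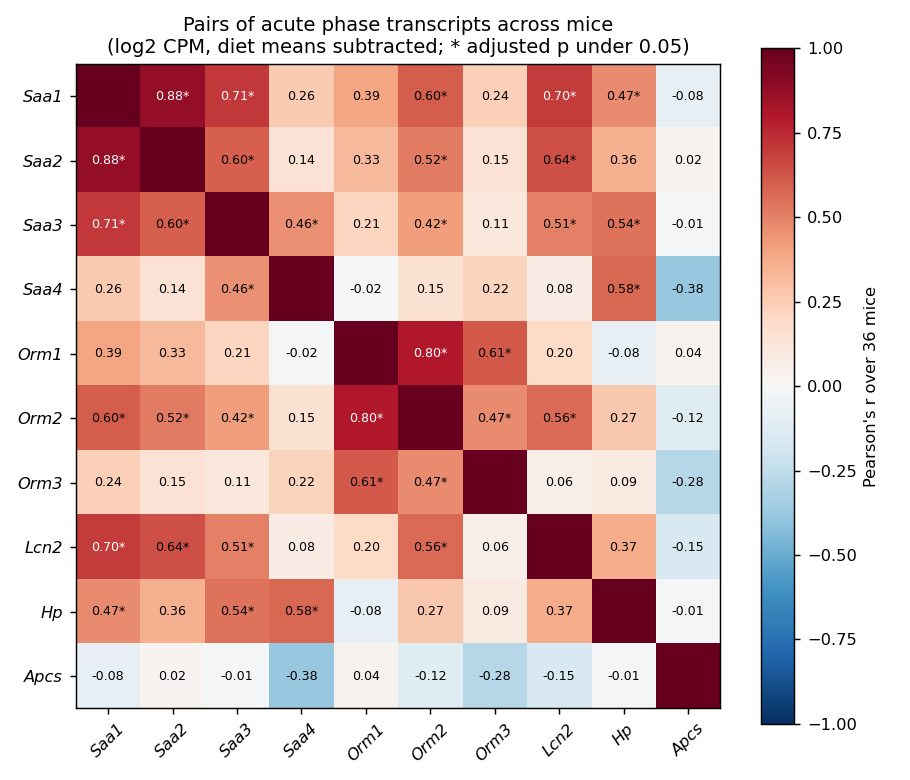
Pearson's r over 36 mice for every pair of acute phase transcripts (log2 CPM, diet means subtracted), coloured from -1 (blue) to 1 (red), with an asterisk where the permutation p adjusted over 45 pairs is under 0.05. Of the 45 pairs, 17 carry an asterisk: Saa1, Saa2, Saa3, Orm2 and Lcn2 do so with each other (Saa3 with Orm2 by r but not by rho), and Apcs with none.

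Read by mouse, Control mouse 137 was among the 3 highest livers for 6 of the 10 members (Hp, Orm1, Orm2, Saa2, Saa3 and Saa4). Its summed hepatocyte markers ranked 2nd of 36, at 140500 CPM, and its summed Kupffer cell and macrophage markers were the lowest of 36, at 106.9 CPM. The part of either in those member values was not tested. Red mouse 199 was among the 3 highest for Saa1, Saa2 and Lcn2, Tangerine mouse 226 for Saa1, Saa2 and Hp, and Tangerine mouse 242 for all 3 Orm genes. Every diet thus held livers at the upper end.

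Outside the members, the genes whose levels over the 36 libraries were most like each member were drawn from 10961 genes and are given as a description. Saa4 was closest to Lims2 (r = 0.875) and Igfbp4 (r = 0.821), and Orm1 to Cope (r = 0.818). Hp was closest to Cd81 (r = 0.799) and Gpx1 (r = 0.779), with Lbp, the lipopolysaccharide-binding protein and itself an acute phase gene, at r = 0.778. Saa3 was closest to the interferon-induced chemokine Cxcl9 (r = 0.767) and the class II antigen presentation genes H2-DMa (0.695) and H2-Ab1 (0.683). Without the 2 mice farthest from the median Saa3, these fell to 0.657, 0.555 and 0.552. Lcn2 was closest to Lgals3 (r = 0.705), Fcer1g (0.653) and the macrophage marker Cd68 (0.626). Without the 2 mice farthest from the median Lcn2, these fell to 0.577, 0.510 and 0.422. Saa1 had no gene above 0.562 (2200002D01Rik) outside the members, and its list included Lrg1 (0.544), an acute phase glycoprotein. The closest genes were 1700037H04Rik for Saa2 (0.616), Nelfe for Orm2 (0.779), Selenbp1 for Orm3 (0.709) and Gm21399 for Apcs (0.760).

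The remaining genes of the acute phase pathway were read from fixed lists. Of the cytokine ligands, 1 of 10 was tested: Il6 never exceeded 2 counts and Tnf 15 counts per library. Il1b, with 11 to 88 counts, had means of 1.52 ± 1.005, 1.65 ± 0.73 and 1.09 ± 0.40 CPM in Control, Red and Tangerine mice (SD, n = 12) and passed in none of the 4 comparisons (adjusted p = 0.335 for tangerine against red, edgeR). Of 12 receptors tested, 0 passed in any comparison. Il1r1, the interleukin 1 receptor, differed by -0.57 on the log2 scale between red and control (SE 0.21, adjusted p = 0.230, edgeR).

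Of the listed positive genes, Hamp, Hamp2 and Serpina3k had 0 counts in every library and Cfb at most 6, so they were not tested. Trf, of the negative genes, had at most 3 counts and was not tested either. These 5 genes all overlap another annotated gene, and the part of that in their counts was not tested. Of 25 other positive acute phase genes tested, 0 passed for red against control, tangerine against control or both tomato diets against control, and 3 passed for tangerine against red, all lower (0.981% of all genes were called lower). They are the fibrinogen chain genes Fga, Fgb and Fgg, whose products form the clotting protein. The 3 genes lie together on chromosome 3 (83007724 to 83049863) and encode parts of 1 protein, so their calls should not be read as independent. Fga ranged from 3816 to 6210 CPM (median 5497) in Red and from 3441 to 5223 CPM (median 3934) in Tangerine mice, with Control at a median of 4522 CPM. Tangerine mice lay above the Red median in 0 of 12 cases for each of the 3 genes, although the ranges overlapped. The log2 fold changes of tangerine against red were -0.34 for Fga (SE 0.084, adjusted p = 0.0278), -0.31 for Fgb (SE 0.078, adjusted p = 0.0320) and -0.30 for Fgg (SE 0.083, adjusted p = 0.0463), all by edgeR. The list's median log2 difference was 0.04, beside -0.0046 over all genes. In the same comparison 0 of the 10 members passed, and the value of Hp, 0.21, had the opposite sign.

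For tangerine against red, 0.732% of all genes were called higher. Of 11 negative acute phase genes, 1 passed, Serpina6, the corticosteroid-binding globulin, higher in Tangerine than in Red mice by 0.47 (SE 0.13, adjusted p = 0.0489, edgeR). Its means were 290 ± 76.4 CPM in Control, 218 ± 39.9 in Red and 302 ± 70.5 CPM in Tangerine mice (SD, n = 12). Against control, Serpina6 differed by -0.42 in Red (adjusted p = 0.13, edgeR) and by 0.06 in Tangerine mice (0.9999). In the other comparisons 0 of the 11 passed. For red against control, 0 of the 11 had a positive log2 fold change, with a median of -0.10 beside -0.0047 over all genes. Of 28 signalling and transcription genes, 1 passed for tangerine against red and 0 in the other comparisons. It was Cebpa, which encodes C/EBP alpha, higher in Tangerine than in Red mice by 0.31 (SE 0.085, adjusted p = 0.0452, edgeR). Its means were 323 ± 42.0 CPM in Control, 292 ± 46.0 in Red and 363 ± 54.7 CPM in Tangerine mice (SD, n = 12). All 5 of these calls ended when a clock score (the first principal component of 11 circadian clock genes) entered the fit as a covariate. The log2 fold changes were then -0.14 for Fga (adjusted p = 0.539), -0.19 for Fgb (0.410), -0.067 for Fgg (0.773), 0.088 for Serpina6 (0.813) and 0.099 for Cebpa (0.677). Over all genes, the 241 calls of this comparison also fell to 0 with the clock score, so this loss was not particular to the 5 genes. The 5 calls were also not steady to single livers. Fga stayed past the threshold in 30 of 36 fits that each left out 1 mouse, and lost it without Red mouse 156, 199 or 202 or Tangerine mouse 215, 216 or 217. Leaving out any of those 6 mice also ended the calls of the other 4 genes, which were lost in 10 fits for Fgb, 17 for Cebpa, 18 for Fgg and 21 for Serpina6. All 5 calls also ended without the low-count filter (adjusted p from 0.0526 to 0.0909), where the fold changes were nearly as in the main test (-0.33 for Fga, 0.48 for Serpina6), and with the mouse number as covariate (0.0805 to 0.140), where they were -0.31 for Fga, -0.28 for Fgb, -0.26 for Fgg, 0.36 for Serpina6 and 0.30 for Cebpa. The calls of Fgg, Serpina6 and Cebpa ended without mice 186 and 216 (0.0641, 0.146 and 0.126). Over all genes, the 241 calls became 136 without the filter, 32 with the mouse number and 86 without mice 186 and 216. Without 1 library they ranged from 89 to 301.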

How the data were processed

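Per the labels' protocols, liver RNA of 36 mice was column-purified (Qiagen) and sequenced from strand-preserving NEXTflex libraries. The authors deposited raw read counts per gene, with no normalization. The submitters' processing notes name the genome build GRCm38.p6 and the tools FastQC, Trimmomatic and edgeR, without roles. The aligner, counting program, annotation, strand setting and treatment of reads shared between genes are not given in the sources used here. Symbols, positions and principal transcripts came from GENCODE M21 (GRCm38), which matched 53620 of 53715 identifiers.

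Counts were filtered with filterByExpr of edgeR 4.0.16 (count 10, total 15, share 0.7), scaled by TMM and tested in all 36 libraries with the quasi-likelihood F test, adjusted within each comparison. Log2 CPM used a prior count of 2. Standard errors are the absolute log2 fold change over the square root of F. The test was tried on simulated data. Spread and pairs were tested by permutation in scipy 1.17.1. Alternatives included DESeq2 1.42.0, limma 3.58.1 (voom), other filters and scalings, a clock score, the mouse number and leaving out libraries. Named genes are the 10 members, listed pathway genes past the threshold or otherwise the smallest p of a list, and the 3 genes most like each member. The members and lists were chosen with earlier results of these data known. No molecular identifiers are named in the labels, so the counting error given excludes amplification.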

Additional observations from a re-analysis of the deposited data

How the results depend on the processing

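No paired analysis was possible because no mouse number recurs between diets. The counts of members called, the counts differing in spread and the count of correlated pairs moved by less than 1.5 times under every alternative run. The pair count lay between 15 and 19 when each of the 36 libraries was left out, a setting chosen after seeing the data, as was leaving out Red mouse 199 with Tangerine mouse 192 (15 pairs). None of the 342 member fold changes under other settings (smallest adjusted p = 0.125) or of the 1440 without 1 library (smallest adjusted p = 0.139) passed the threshold.

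Member fold changes, none past the threshold in any fit, changed sign in 30 of the 342 and 66 of the 1440 cases. They included Lcn2, whose reported differences from control were 0.43 in Red and 0.36 in Tangerine mice. The cause was not tested. For red against control, these were Saa1 0.058, Saa2 0.024, Orm1 0.045, Orm2 0.080 and Apcs -0.0051 with limma-voom, and Saa4 0.0095, Lcn2 -0.10 and Apcs -0.083 with the clock score. For tangerine against control, they were Saa3 -0.068 and Orm2 -0.0023 with the mouse number as covariate, and Saa3 -0.0082 without Red mouse 186 and Tangerine mouse 216. For tangerine against red, the clock score gave Saa1 0.049, Saa2 0.063, Saa4 -0.12, Orm1 0.076, Lcn2 0.59 and Apcs 0.015. Orm1, at -0.0005 in the reported fit, was 0.0031 with DESeq2 size factors and with the DESeq2 test, 0.0062 without a filter, 0.0013 with a filter at log2 CPM 1, 0.0026 with the mouse number and 0.0008 with only the groups compared. Orm3 was -0.0050 with the mouse number, -0.059 with limma-voom and -0.049 without mice 186 and 216. For both tomato diets, limma-voom gave Saa3 0.0087, Orm1 0.020 and Orm2 0.11, and the mouse number gave Apcs 0.0017.

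Leaving out 1 library gave, for red against control, -0.20 to 0.059 for Saa1, -0.13 to 0.14 for Orm3 and -0.026 to 0.051 for Apcs. For tangerine against control it gave -0.074 to 0.21 for Saa3, -0.093 to 0.022 for Saa4, -0.014 to 0.11 for Orm2, -0.071 to 0.18 for Orm3 and -0.11 to 0.53 for Lcn2. For tangerine against red it gave -0.057 to 0.043 for Orm1, -0.13 to 0.23 for Orm3 and -0.54 to 0.31 for Lcn2. For both tomato diets it gave -0.17 to 0.10 for Saa3, -0.061 to 0.050 for Orm2, -0.021 to 0.14 for Orm3 and -0.056 to 0.0089 for Hp.

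The background counts of all genes called depended more on the setting. Red against control, 21 genes, became 59 with a filter at log2 CPM 1, 3 with the clock score, 1504 with limma-voom, 167 with DESeq2 and 53 without mice 186 and 216. Tangerine against control, 2 genes, became 1 with the mouse number and 7 with DESeq2. Tangerine against red, 241 genes, became 136 without a filter, 0 with the clock score, 32 with the mouse number, 746 with limma-voom, 421 with DESeq2 and 86 without mice 186 and 216. Both tomato diets, 1 gene, became 6, 34, 12 and 2 without a filter, with limma-voom, with DESeq2 and without mice 186 and 216. Without 1 library the 4 counts ranged over 13 to 127, 2 to 4, 89 to 301 and 1 to 7. Lcn2 and Saa2 have the largest standard errors of the members, and depth limits Orm3 most, with the largest counting error.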
